A study of Homo sapiens with 2 samples.

Results

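The genes described here are the autophagy machinery and the autophagy receptors, in SF-539 cells with and without depletion of FKBP9. They were taken from the gene table as the rows of protein-coding biotype whose symbol is in a list of 38 genes, and all 38 were found among the 58735 genes of the table, of which 19951 are protein-coding. SF-539 is a human glioblastoma (GBM) cell line, labelled as epithelial glioma cells from brain. FKBP9 is a peptidyl-prolyl isomerase of the endoplasmic reticulum (ER) that belongs to the FK506-binding proteins. The cells were infected with lentivirus of the pGIPZ vector carrying a control shRNA (SF-539-shControl) or an shRNA against FKBP9 (SF-539-shFKBP9), and stable clones were obtained under puromycin. Both groups therefore carry a lentiviral vector and went through drug selection, and both were grown in DMEM with fetal bovine serum. Which of the FKBP9 shRNAs of the study was used for sequencing, and how many clones were combined, is not given in the sources used here. Total RNA was sequenced with 1 library per condition, so the differences below have no replicate check and no test between the conditions was possible.

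Autophagy delivers cytoplasmic material to lysosomes inside a double-membraned vesicle, the autophagosome. Its formation is started by the ULK1 kinase complex, which mTORC1 holds back in fed cells, and continues with a class III PI3-kinase complex that marks the membrane with phosphatidylinositol 3-phosphate. Membrane lipids are then delivered by ATG9A vesicles and ATG2 lipid transfer proteins, and a ubiquitin-like conjugation system attaches proteins of the ATG8 family to the growing membrane. Receptors such as SQSTM1 (p62) bind both a cargo and ATG8 proteins, and a subset of them, the ER-phagy receptors, select pieces of the ER. In glioma cells autophagy is best known as a response to nutrient shortage, hypoxia and ER stress, and several of its genes are known to be transcribed downstream of the ER stress factors ATF4 and CHOP. Much of the pathway is controlled at the protein level, which transcript levels do not report.

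The values are FPKM (fragments scaled by gene length and by library size), from which the fragments behind each value could be recovered exactly. The SF-539-shControl library held 18116873 fragments on genes and the SF-539-shFKBP9 library 17158514, of which the 38 genes took 40910 and 39495. FKBP9 itself (chr7:32957404-33006931, hg38) had 49.8 FPKM (4659 fragments) in SF-539-shControl cells and 4.68 FPKM (415 fragments) in SF-539-shFKBP9 cells, which is 9.39% of the control level. Its log2 ratio was -3.38, with a 95% counting interval of -3.56 to -3.27. Here and below a log2 ratio is that of SF-539-shFKBP9 to SF-539-shControl with 0.1 added to both FPKM, and the interval is the exact Clopper-Pearson interval of the fragments without that addition. Such intervals cover counting error only, and compare these libraries rather than the conditions. Of the markers used to check the labelled cells, 4 of 4 mesenchymal genes had at least 1 FPKM, with VIM at 277 and 295 FPKM. By contrast, 1 of 7 glial or neural genes (NES) and 1 of 5 epithelial genes (KRT8) reached 1 FPKM, GFAP was at 0.196 and 0.139 FPKM, and AQP4 had 0 fragments in both libraries. Fragments of 4 keratinocyte genes summed to 9 in SF-539-shControl cells and 62 in SF-539-shFKBP9 cells, and those of 5 plasma cell or blood genes to 4 and 42, with each of these genes under 1 FPKM. Of the latter, IGHG1 went from 0 to 33 fragments and IGKC from 0 to 8, while JCHAIN (2 and 1), HBB (2 and 0) and PTPRC (0 and 0) did not go the same way. Their part in the differences below was not tested.

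Transcript levels of the autophagy genes were close to each other in the libraries. With a minimum of 1 FPKM in either library, 37 of the 38 genes remained, together with 10346 protein-coding genes of the table. Their summed level was 378 FPKM in SF-539-shControl cells and 383 FPKM in SF-539-shFKBP9 cells. Their median log2 ratio was 0.02, beside -0.02 for all 10346 genes, with 20 genes above 0 and 17 below (46.3% of all genes lay above 0). The median size of the log2 ratio without its sign was 0.11 for the autophagy genes and 0.13 for all genes. In bulk RNA, fewer cells that express a gene and less of its RNA per cell cannot be told apart.

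Few members passed a fold threshold. Past 1.2-fold (a log2 ratio of 0.263), 3 of 37 genes were higher in SF-539-shFKBP9 cells (8.11%), beside 9.11% of all protein-coding genes. These were the ER-phagy receptor CCPG1, the ubiquitin-like protein ATG12 and the ATG8 protein GABARAP. In the other direction 0 of 37 genes passed 1.2-fold, whereas 10.9% of all genes did. No member passed 2-fold in either direction, which 0.213% of all genes did upward and 0.193% downward. The counting interval lay above 0 for 7 members (18.9%, beside 19.7% of all genes), namely ATG5, ATG12, MAP1LC3B, MAP1LC3A, SQSTM1, TAX1BP1 and CCPG1. It lay below 0 for 5 members (13.5%, beside 24.0% of all genes), namely ULK1, ATG9A, ATG2A, ATG4B and TEX264, and it held 0 for the other 25. These interval counts depend on the scaling and the level. With FPKM rescaled to TPM (the same total in each library) 5 members lay above 0 (17.2% of all genes) and 8 below (27.0%). With the median ratio as the scaling 8 lay above (22.4%) and 4 below (21.1%), with PIK3C3 added and ULK1 lost. At 99% 4 lay above (14.4%) and 4 below (17.5%).

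**Figure D1:**
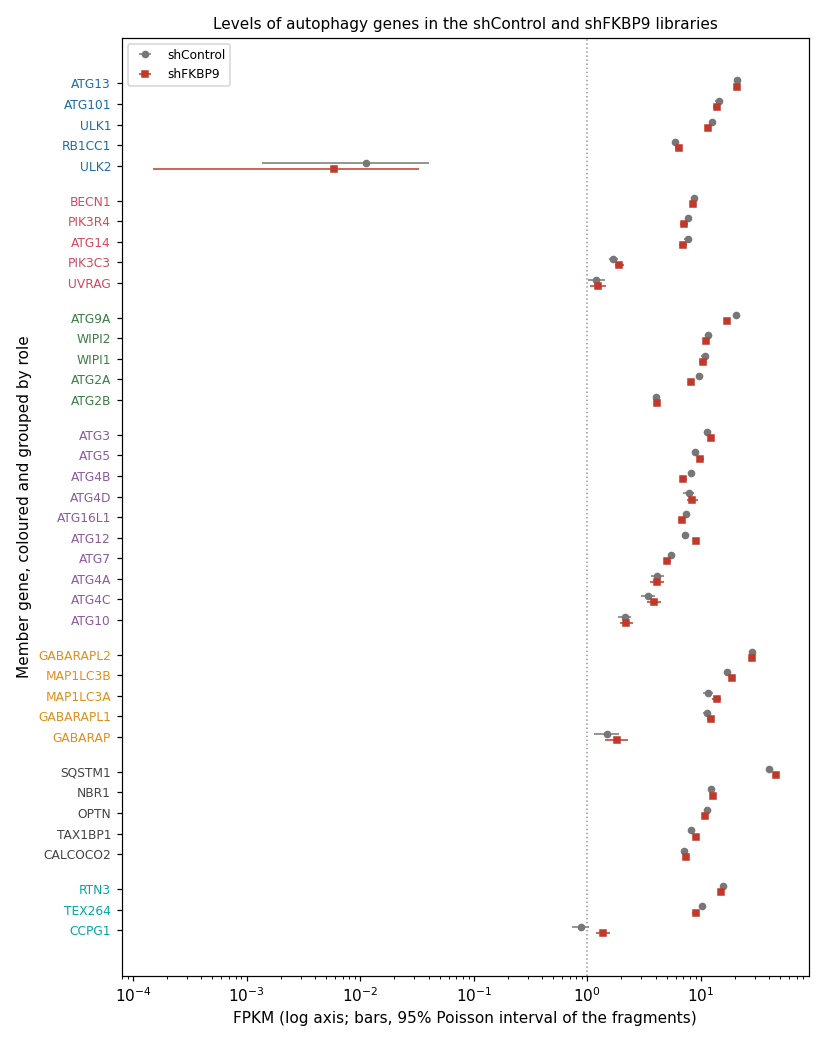
FPKM of the 38 autophagy genes on a log axis, grouped and coloured by role, with grey circles for SF-539-shControl and red squares for SF-539-shFKBP9 and bars for the 95% Poisson interval of the fragments. The symbols of most genes lie close together, SQSTM1 is the highest gene in both libraries at 39.4 and 45.9 FPKM, and ULK2 lies far to the left at 2 and 1 fragments.

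The order of the genes by FPKM was the same at the top in the libraries and moved most in the middle. The gene length behind FPKM can exceed that of the canonical transcript, by an amount that differs between genes. It is 8888 bases for ATG12 and 8790 for CCPG1, whose canonical transcripts have 4040 and 3553 bases. Ranks, shares and levels of different genes therefore compare only roughly. SQSTM1, GABARAPL2 and ATG13 held ranks 1, 2 and 3 in both. ATG9A went from rank 4 in SF-539-shControl cells to rank 5 in SF-539-shFKBP9 cells, and MAP1LC3B went from rank 5 to rank 4. Of the other genes, ATG12 moved most, from rank 26 to 17, and CALCOCO2 went from 27 to 23. In the other direction ATG2A went from 17 to 22, ULK1 from 8 to 12 and ATG4B from 21 to 25. These ranks lie where many members have similar levels. The median member stood at 8.65 and 8.98 FPKM, above the median of 7.37 and 7.27 FPKM over all protein-coding genes with the same minimum. At the low end were ULK2, CCPG1, UVRAG, GABARAP and PIK3C3.

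The ULK1 initiation complex was expressed through ULK1 and not measurably through its paralog ULK2. ULK1, the kinase that starts autophagosome formation, had 12.5 FPKM (1728 fragments) in SF-539-shControl cells and 11.7 FPKM (1522 fragments) in SF-539-shFKBP9 cells, a log2 ratio of -0.11 (interval -0.21 to -0.01). ULK2 had 2 fragments and 1 fragment, which is under the limit of 3 fragments that a count of 0 allows, so no fold is given. The ULK1 level was lower by a small amount, with an interval that ended just short of 0, and it was not lower once the median log2 ratio of genes of like GC content was subtracted, called centred by GC content below (0.01). ATG13, the regulatory subunit that mTORC1 phosphorylates, was the most abundant gene of the complex at 20.8 and 20.6 FPKM, with a log2 ratio of -0.02 (-0.09 to 0.06). ATG101, the partner that stabilises ATG13, had 14.4 and 13.8 FPKM and a log2 ratio of -0.06 (-0.21 to 0.08). RB1CC1 (FIP200), the scaffold of the complex, had 5.95 and 6.38 FPKM and a log2 ratio of 0.10 (-0.04 to 0.24). The 3 subunits other than ULK1 thus had intervals that held 0.

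None of the 5 genes of the class III PI3-kinase complexes had an interval beyond 0, although that of PIK3C3 lay above 0 with the median ratio as the scaling and that of ATG14 below 0 in TPM. BECN1 (Beclin 1), the core scaffold, stood at 8.65 FPKM in SF-539-shControl cells and 8.54 FPKM in SF-539-shFKBP9 cells, a log2 ratio of -0.02 (-0.15 to 0.11). PIK3C3 (VPS34), the lipid kinase itself, had 1.69 and 1.92 FPKM and a log2 ratio of 0.17 with an interval from -0.00 to 0.37. Its regulatory subunit PIK3R4 (VPS15) had 7.73 and 7.06 FPKM and a log2 ratio of -0.13 (-0.28 to 0.02). The kinase and its regulatory subunit differed in sign, and neither difference was beyond counting error. ATG14, which directs the complex to autophagosome formation, had 7.63 and 6.91 FPKM (log2 ratio -0.14, interval -0.30 to 0.02). UVRAG, which takes the place of ATG14 in the endosomal form of the complex, was much scarcer with 138 and 136 fragments (log2 ratio 0.05, -0.30 to 0.41).

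Membrane supply held the members that were lowest relative to SF-539-shControl in the deposited FPKM. ATG9A (chr2:219219380-219229717), a transmembrane lipid scramblase carried on vesicles to the forming autophagosome, had 20.3 FPKM (1733 fragments) in SF-539-shControl cells and 17.0 FPKM (1377 fragments) in SF-539-shFKBP9 cells. Its log2 ratio of -0.25 (-0.36 to -0.15) was the most negative of the members and stopped just short of 1.2-fold, which it passed in TPM (-0.27). Centred by GC content, however, it had -0.15, beside -0.16 for both PIK3R4 and ATG14. ATG2A (chr11:64894546-64917248), a bridge that transfers lipid from the ER, had 9.66 FPKM (1377 fragments) and 8.22 FPKM (1110 fragments), a log2 ratio of -0.23 (-0.35 to -0.12). Both were lower in SF-539-shFKBP9 cells beyond counting error. For ATG9A, 38.8% of the exonic bases are shared with the annotated gene AC068946.2, which had 7 fragments in each library. ATG2B, the paralog of ATG2A, was less abundant at 4.04 and 4.09 FPKM with a log2 ratio of 0.02 (-0.11 to 0.14). The PI3P-binding proteins WIPI2, which recruits ATG16L1, and WIPI1 had log2 ratios of -0.08 (-0.18 to 0.01) and -0.05 (-0.21 to 0.11), at 11.7 and 11.0 FPKM for WIPI2 and 10.8 and 10.4 FPKM for WIPI1. Of the 5 genes in this group 4 had a ratio below 0 and 1 above, where 46.3% of all genes lay above 0. Their median was -0.08, beside -0.02 for all genes, but WIPI1 and WIPI2 were above 0 when centred by GC content.

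In the conjugation system ATG12 was the gene that differed most. ATG12 (chr5:115828200-115841858), a ubiquitin-like protein that is joined to ATG5, had 7.19 FPKM (1157 fragments) in SF-539-shControl cells and 9.12 FPKM (1392 fragments) in SF-539-shFKBP9 cells. Its log2 ratio was 0.34 (0.23 to 0.46), and it was the only member past 1.2-fold in either direction whose interval also lay beyond 0, whose FPKM was above 1 in both libraries and whose exons overlap other genes by less than 30%. Centred by GC content it had 0.17, which is not past 1.2-fold and is below the 0.23 of ATG4D in the same group. ATG5, its conjugation partner, had 8.97 and 9.91 FPKM and a log2 ratio of 0.14 (0.01 to 0.28), or 0.01 centred by GC content. ATG16L1, which holds the conjugate at the membrane, had 7.47 and 6.77 FPKM and a log2 ratio of -0.14 (-0.29 to 0.01). Within the complex that these 3 proteins form, the transcripts therefore differed in sign.

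The activating and conjugating enzymes ATG7, ATG3 and ATG10 had intervals that held 0. ATG7, the E1-like activating enzyme, had 5.46 and 5.04 FPKM (log2 ratio -0.11, -0.26 to 0.03). The E2-like enzymes ATG3, which acts on ATG8 proteins, and ATG10, which acts on ATG12, had 11.4 and 12.2 FPKM (log2 ratio 0.09, -0.02 to 0.20) and 2.13 and 2.21 FPKM (log2 ratio 0.05, -0.23 to 0.34). Of the 4 ATG4 proteases, which trim ATG8 proteins before conjugation and release them afterwards, ATG4B was lower beyond counting error. ATG4B (chr2:241637213-241673857) had 8.16 FPKM (981 fragments) in SF-539-shControl cells and 7.02 FPKM (800 fragments) in SF-539-shFKBP9 cells, a log2 ratio of -0.21 (-0.35 to -0.08). ATG4D had 7.83 and 8.41 FPKM (log2 ratio 0.10, -0.12 to 0.33), ATG4A 4.15 and 4.14 FPKM (log2 ratio -0.00, -0.28 to 0.28), and ATG4C 3.43 and 3.90 FPKM (log2 ratio 0.18, -0.10 to 0.47). Whether ATG4B differs from the other proteases cannot be tested with 1 library per condition.

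All 5 genes of the ATG8 family had a ratio above 0, with a median of 0.14, except that GABARAPL2 was below 0 when FPKM were rescaled to TPM or centred by GC content. Their summed level was 69.5 FPKM in SF-539-shControl cells and 74.7 FPKM in SF-539-shFKBP9 cells. MAP1LC3B (LC3B), the member most used as a marker of autophagosomes, had 17.0 FPKM (1632 fragments) and 18.7 FPKM (1710 fragments), a log2 ratio of 0.14 (0.05 to 0.24). MAP1LC3A (LC3A; chr20:34546854-34560345) had 11.7 FPKM (372 fragments) and 13.8 FPKM (416 fragments), a log2 ratio of 0.24 (0.03 to 0.44). These LC3 genes were the members of the family that were higher beyond counting error. In the GABARAP branch, GABARAPL2 had 28.1 and 28.2 FPKM (log2 ratio 0.01, -0.10 to 0.11) and GABARAPL1 had 11.3 and 12.2 FPKM (log2 ratio 0.11, -0.03 to 0.25). GABARAP (chr17:7240014-7242770) passed 1.2-fold with few fragments, 61 in SF-539-shControl cells and 71 in SF-539-shFKBP9 cells (1.49 and 1.83 FPKM). Its log2 ratio of 0.28 had an interval of -0.22 to 0.81, which held 0. Other genes share 48.2% of its exonic bases, the largest of them AC120057.2 with 35.4% and 0 fragments in both libraries, and how fragments in shared bases were assigned is not given in the sources used here.

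Within the 5 members of the family, GABARAPL2 made up the largest share of the summed FPKM. It accounted for 40.4% ± 0.79 in SF-539-shControl cells and 37.8% ± 0.78 in SF-539-shFKBP9 cells (counting SE). MAP1LC3B accounted for 24.4% ± 0.58 and 25.1% ± 0.59, MAP1LC3A for 16.8% ± 0.76 and 18.4% ± 0.78, GABARAPL1 for 16.2% ± 0.53 and 16.3% ± 0.53, and GABARAP for 2.14% ± 0.27 and 2.44% ± 0.29. The LC3 genes together made up 41.2% and 43.5%, a difference of 2.29 percentage points with a counting SE of 1.13. The share of GABARAPL2 differed by -2.66 percentage points with a counting SE of 1.11, the largest difference of a single gene. GABARAP genes were in the majority in both libraries.

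The soluble cargo receptors were led by SQSTM1. SQSTM1 (chr5:179806398-179838078), which binds ubiquitinated proteins and is itself degraded by autophagy, had 39.4 FPKM (5465 fragments) in SF-539-shControl cells and 45.9 FPKM (6033 fragments) in SF-539-shFKBP9 cells. Its log2 ratio of 0.22 (0.17 to 0.27) did not pass 1.2-fold, and it had the most fragments and the narrowest interval of the members. MRNIP, which shares 21.0% of the exonic bases of SQSTM1, had 403 and 321 fragments. TAX1BP1, a ubiquitin-binding receptor, had 8.26 and 9.01 FPKM and a log2 ratio of 0.12 (0.02 to 0.23). NBR1, which acts with SQSTM1 on ubiquitinated cargo, had 12.3 and 12.8 FPKM (log2 ratio 0.05, -0.05 to 0.14). The receptors OPTN (optineurin) and CALCOCO2 (NDP52), both known for mitochondria and bacteria as cargo, had 11.2 and 10.9 FPKM (log2 ratio -0.05, -0.17 to 0.08) and 7.04 and 7.38 FPKM (log2 ratio 0.07, -0.06 to 0.19). The share of SQSTM1 in the summed FPKM of these 5 receptors was 50.4% ± 0.49 and 53.4% ± 0.48 (counting SE), a difference of 3.07 percentage points with a counting SE of 0.68. The share of OPTN was 14.3% ± 0.40 and 12.7% ± 0.37, and those of the other receptors differed by less than 1 percentage point.

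**Figure D2:**
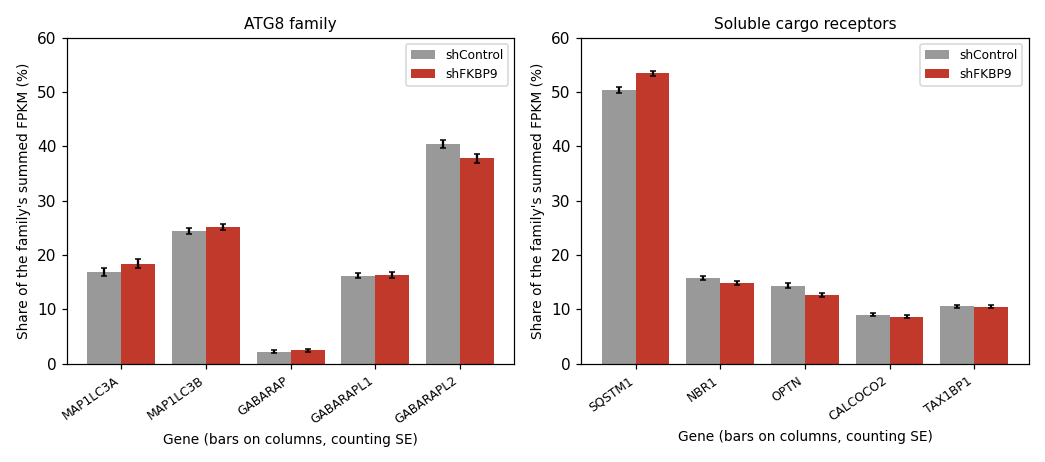
Share of each gene in the summed FPKM of the members of its family in percent, for the ATG8 family (left) and the soluble cargo receptors (right), with grey columns for SF-539-shControl, red columns for SF-539-shFKBP9 and bars for the counting SE. GABARAPL2 is the largest ATG8 gene in both libraries, and SQSTM1 made up 50.4% of the receptors in SF-539-shControl and 53.4% in SF-539-shFKBP9.

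The 3 ER-phagy receptors among the members, considered apart, went in different directions. CCPG1 (chr15:55340032-55408510), an ER membrane receptor whose gene is known to be induced by ER stress, had 0.880 FPKM (140 fragments) in SF-539-shControl cells and 1.37 FPKM (207 fragments) in SF-539-shFKBP9 cells. Its log2 ratio of 0.59 (0.32 to 0.96) was the largest of the members (0.34 with 1 in place of 0.1 added to FPKM), and it passed the minimum of 1 FPKM only through the SF-539-shFKBP9 library. Another annotated gene, the readthrough transcript DNAAF4-CCPG1, shares 38.7% of the exonic bases of CCPG1 and had 0 fragments in both libraries. TEX264 (chr3:51662693-51704323), an ER receptor with a large part in starvation-induced ER-phagy, had 10.3 FPKM (1059 fragments) and 8.98 FPKM (877 fragments), a log2 ratio of -0.19 (-0.33 to -0.06). RTN3, a receptor of ER tubules, had 15.8 and 15.0 FPKM and a log2 ratio of -0.08 (-0.18 to 0.03). By the deposited FPKM RTN3 was the most abundant of the 3 receptors and CCPG1 the scarcest. How fragments in shared bases were assigned is not given. The FPKM and ranks of CCPG1, GABARAP and ATG9A, and the share of GABARAP, may therefore understate their levels.

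**Figure D3:**
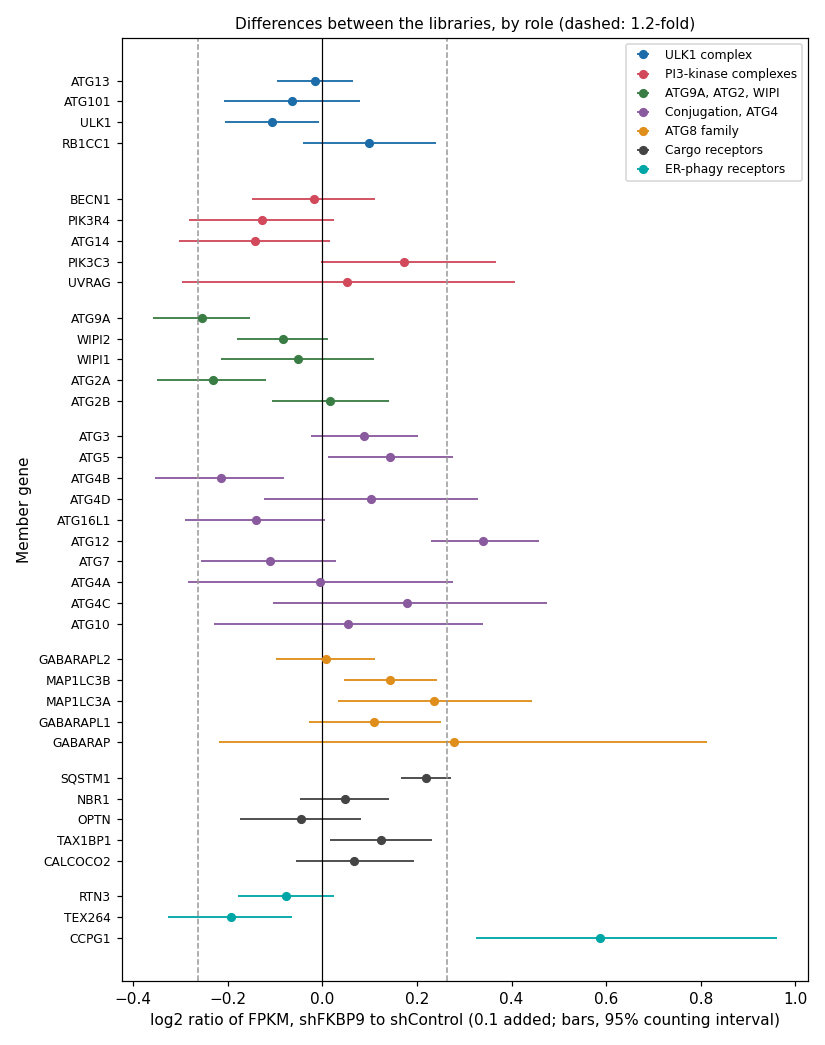
log2 ratio of FPKM (SF-539-shFKBP9 to SF-539-shControl, 0.1 added) of the 37 autophagy genes that reached 1 FPKM, by role, with bars for the 95% counting interval and dashed lines at 1.2-fold. CCPG1 (0.59), ATG12 (0.34) and GABARAP (0.28) lie to the right of the upper line, the bar of GABARAP crosses 0, and no gene lies to the left of the lower line.

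Of the members, 13 are known to be transcribed downstream of ATF4 or CHOP, including SQSTM1, MAP1LC3B, ATG5, ATG12 and CCPG1. Of these 13 genes, 10 had a ratio above 0 (46.3% of all genes did) and 3 below, with a median of 0.09 beside -0.02 for all genes. Past 1.2-fold, 3 were higher (9.11% of all genes were) and 0 lower (10.9% of all genes). Of the 3, CCPG1 passed the minimum only through the library in which it was higher, and the interval of GABARAP held 0. The interval lay above 0 for 5 of them (19.7% of all genes) and below 0 for 0 (24.0% of all genes). Centred by GC content the median of the 13 genes was 0.03. The 3 genes below 0 were BECN1, ATG16L1 and ATG7, each with an interval that held 0.

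The log2 ratios varied with the GC content of the transcript across the whole table, and the members varied with it in the same way. Over 10329 protein-coding genes the correlation between log2 ratio and GC content of the canonical transcript was -0.45 (Spearman's rho) or -0.37 (Pearson's r), and over the 37 members it was -0.47 or -0.44. These are correlations across genes that share the 2 libraries and their depth, and are given as a description. In the 2066 genes with the lowest GC content (30.7% to 40.6%) the median log2 ratio was 0.13, and 20.1% passed 1.2-fold upward and 1.99% downward. In the 2066 genes with the highest GC content (58.3% to 74.4%) the median was -0.12, with 3.92% upward and 19.1% downward. All 7 members in the lowest group had a ratio above 0 (median 0.17), whereas 2 of the 8 members in the highest group did (median -0.15).

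The 5 members whose interval lay below 0 all had a GC content between 58.6% and 64.2%. Of the 7 members whose interval lay above 0, MAP1LC3B, ATG5, TAX1BP1, ATG12 and CCPG1 were under 43% GC, while SQSTM1 (57.1%) and MAP1LC3A (65.7%) were not. When the median of genes of like GC content was subtracted, the log2 ratio was 0.17 for ATG12, 0.46 for CCPG1, 0.32 for SQSTM1, 0.36 for MAP1LC3A and 0.34 for GABARAP. On this scale CCPG1, GABARAP, MAP1LC3A and SQSTM1 were past 1.2-fold upward (4 of 37, beside 7.48% of all genes) and ATG12 was not, 0 members were past it downward (7.42% of all genes), and the median of the members was 0.01. Of the other members with an interval beyond 0, MAP1LC3B had 0.10, ATG5 0.01, TAX1BP1 -0.01, ATG9A -0.15, ATG2A -0.11, ATG4B -0.11, TEX264 -0.09 and ULK1 0.01. Of the 38 members 10 took the other sign, namely GABARAPL2, ATG13, ATG101, ULK1, WIPI2, WIPI1, TAX1BP1, BECN1, RB1CC1 and ATG2B. The part of GC content in these differences was not tested.

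Stretches of coding sequence illustrate this for 4 members chosen by their log2 ratio, which are not those of lowest or highest GC content. The middle 120 coding bases of their canonical transcripts (GENCODE 44) follow 5′ to 3′, with G and C in capitals. They are given for ATG12 and CCPG1, which were higher, and for ATG2A and ATG9A, which were lower. MAP1LC3A (65.7% GC) and ATG4D (64.8%), with ratios above 0, are not among them. G and C make up 40.0% of the stretch of ATG12, 41.7% of that of CCPG1, 60.8% of that of ATG2A and 61.7% of that of ATG9A. Over the whole coding sequence they make up 48.2%, 38.6%, 63.7% and 57.8%, in the same order. Over the canonical transcript they make up 36.1%, 38.1%, 63.9% and 58.9%. The coding sequence of ATG12 is thus not as low in GC content as its stretch or its transcript.
ATG12: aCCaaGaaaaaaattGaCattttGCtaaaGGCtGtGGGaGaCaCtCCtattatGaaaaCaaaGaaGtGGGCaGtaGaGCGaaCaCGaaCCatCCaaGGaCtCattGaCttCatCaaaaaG
CCPG1: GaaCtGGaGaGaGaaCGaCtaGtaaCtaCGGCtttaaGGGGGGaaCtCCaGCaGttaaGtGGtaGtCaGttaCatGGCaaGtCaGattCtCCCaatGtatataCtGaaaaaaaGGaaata
ATG2A: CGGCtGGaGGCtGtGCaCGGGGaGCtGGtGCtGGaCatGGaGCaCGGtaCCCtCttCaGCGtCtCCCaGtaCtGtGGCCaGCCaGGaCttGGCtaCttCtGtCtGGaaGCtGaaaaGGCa
ATG9A: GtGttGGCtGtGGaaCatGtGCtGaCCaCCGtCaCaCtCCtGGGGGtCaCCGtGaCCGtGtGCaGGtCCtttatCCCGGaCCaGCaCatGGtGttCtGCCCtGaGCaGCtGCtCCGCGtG

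Promoters of the members were searched for 3 motifs that are known for autophagy and ER stress factors, and 4 genes held a match. In the RefSeq table used here (GRCh38.p14), 34 of the 38 genes had a window of 250 bases before the gene's start. The E-box CACGTG, bound by the MiT/TFE factors that control lysosomal and autophagy genes, was found in 2 of 34 windows and in 6.34% of 35116 windows of all genes. The letters TGATGNAA, the ATF4 composite element, were found in 0 of 34 windows and in 3.14% of all. The letters TGACGTG, the core bound by XBP1 and ATF6, were found in 3 of 34 windows and in 1.68% of all. Both strands were searched, and a match is a description of the letters, not of binding. The last 80 bases before the start follow for the 4 genes with a match, 5′ to 3′ on the strand of the gene, with matches in capitals.
ATG3: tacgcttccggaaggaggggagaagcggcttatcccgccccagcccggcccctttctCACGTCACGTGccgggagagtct
ATG10: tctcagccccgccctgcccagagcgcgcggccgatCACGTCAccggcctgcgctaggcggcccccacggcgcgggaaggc
ATG14: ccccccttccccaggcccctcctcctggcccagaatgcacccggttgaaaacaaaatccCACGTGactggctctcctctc
CALCOCO2: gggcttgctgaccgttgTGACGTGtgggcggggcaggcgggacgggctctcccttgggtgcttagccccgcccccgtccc

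In the ATG3 window the E-box and the reverse complement of TGACGTG overlap by 2 bases. The ATG3, ATG10, ATG14 and CALCOCO2 stretches lie at chr3:112561963-112562042 (minus strand), chr5:81971943-81972022 (plus strand), chr14:55411831-55411910 (minus strand) and chr17:48830955-48831034 (plus strand), in that order. ATG3 and CALCOCO2, as described, had log2 ratios of 0.09 and 0.07, ATG10 had 0.05 and ATG14 had -0.14, each with an interval that held 0. The window is the first 250 bases of a RefSeq entry, and the end of the full entry served to check strand and start. For 29 of the 34 genes the last 30 bases of the full entry lie in an annotated transcript of the gene in GENCODE 44.

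Near-identical copies took few fragments. Of the members, 15 have pseudogenes or close copies in the table. For MAP1LC3B these copies, MAP1LC3B2 among them, had 81 fragments in SF-539-shControl cells and 67 in SF-539-shFKBP9 cells, 4.24% of the sum, and with them the log2 ratio of MAP1LC3B was 0.13. The copies of ATG12 had 13 and 15 fragments, those of RTN3 13 and 13 and those of GABARAP 2 and 2, and those of the other genes had at most 1. The library kit and the counting are not stated to use strand, so fragments of a member and of a gene that overlaps it cannot be told apart. After GABARAP, CCPG1 and ATG9A, the members with the largest overlap were WIPI1 (28.1% of exonic bases, mostly with ARSG), SQSTM1 (22.4%) and ATG14 (20.8%, with FBXO34).

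For the other genes of the pathway, the counts past 1.2-fold stand beside the same 9.11% upward and 10.9% downward of all protein-coding genes, and with 3 to 15 genes a list 1 gene is a large share. Of 11 other ER-phagy genes, 2 were past 1.2-fold upward and 1 downward, with a median log2 ratio of 0.05. SEC62, a translocon protein that is an ER-phagy receptor in recovery from ER stress, had 9.83 and 13.0 FPKM (log2 ratio 0.41, 0.31 to 0.51). UFM1, the modifier of the UFMylation system that acts on ER ribosomes, had 14.9 and 19.6 FPKM (log2 ratio 0.39, 0.29 to 0.51). The gene past 1.2-fold downward was ATL1, named after its values were seen, at 1.56 and 1.22 FPKM with an interval that held 0 (-0.77 to 0.04). Like CCPG1, SEC62 (36.5%) and UFM1 (35.2%) have a low GC content, and centred by it they had 0.24 and 0.23, which are not past 1.2-fold.

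Of 14 other core autophagy genes, 11 passed the minimum, 0 were past 1.2-fold upward and 2 downward, with a median of -0.13. RUBCN (Rubicon), an inhibitor of the UVRAG complex, had 2.91 and 2.16 FPKM (log2 ratio -0.42, -0.64 to -0.22), and TMEM41B, an ER scramblase, had 7.42 and 5.90 FPKM (log2 ratio -0.33, -0.51 to -0.15). BECN2, a paralog of BECN1, had 0 fragments in both libraries. Of 16 genes of autophagosome-lysosome fusion, 15 passed the minimum, 0 were past 1.2-fold upward and 2 downward, with a median of -0.08. These were VPS16, a subunit of the HOPS tethering complex, with a log2 ratio of -0.41 (-0.64 to -0.20), and RAB7B, a small GTPase of late endosomes, with -0.36 (-0.48 to -0.25). All 4 of these genes stayed past 1.2-fold when centred by GC content, at -0.36 for RUBCN, -0.46 for TMEM41B, -0.31 for VPS16 and -0.27 for RAB7B.

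Of 10 mitophagy genes that passed the minimum, 2 were past 1.2-fold upward and 1 downward. BNIP3L (NIX), a mitochondrial receptor that binds ATG8 proteins directly, had 48.4 FPKM (3773 fragments) and 67.0 FPKM (4954 fragments), a log2 ratio of 0.47 (0.41 to 0.53). TBK1, the kinase of OPTN and SQSTM1, passed 1.2-fold by a narrow margin (log2 ratio 0.26, 0.11 to 0.42). PINK1, the kinase that marks damaged mitochondria, had a log2 ratio of -0.32 (-0.42 to -0.22). Centred by GC content BNIP3L stayed past 1.2-fold (0.34), while TBK1 (0.13) and PINK1 (-0.22) did not.

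Upstream of the ULK1 complex, 3 of 13 kinases and sensors were past 1.2-fold upward and 2 downward, with a median of 0.05. The inhibitors of mTORC1 signalling SESN2 (8.16 and 11.0 FPKM, log2 ratio 0.43, 0.26 to 0.60) and TRIB3 (2.86 and 3.61 FPKM, log2 ratio 0.33, 0.04 to 0.63) are known ATF4 targets, and PRKAA2, a catalytic subunit of AMPK, had 0.732 and 1.01 FPKM (log2 ratio 0.41, 0.12 to 0.81) and passed the minimum only through the SF-539-shFKBP9 library. MTOR, the kinase that holds ULK1 back, had 13.9 and 11.0 FPKM (log2 ratio -0.33, -0.42 to -0.26), and TSC2, an inhibitor of mTORC1, also had -0.33 (-0.47 to -0.21). Centred by GC content SESN2 (0.53) and TRIB3 (0.45) stayed past 1.2-fold, while PRKAA2 (0.25), MTOR (-0.25) and TSC2 (-0.20) did not. Of the 4 MiT/TFE factors 3 passed the minimum, 0 were past 1.2-fold upward and 1 downward, with a median of 0.05. TFE3, the most abundant, had 31.1 and 34.3 FPKM (log2 ratio 0.14, 0.06 to 0.22), and MITF had a log2 ratio of 0.05 (-0.28 to 0.39). TFEB had 1.97 FPKM (201 fragments) and 1.45 FPKM (141 fragments), a log2 ratio of -0.41 (-0.76 to -0.12). Centred by GC content TFEB had -0.28, which is still past 1.2-fold.

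**Figure D4:**
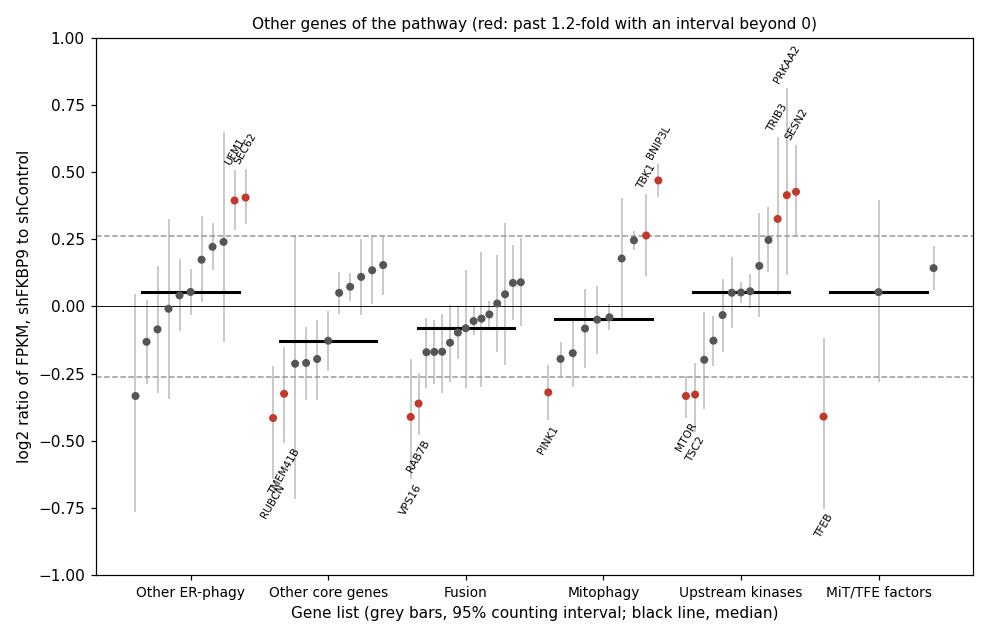
log2 ratio of FPKM (SF-539-shFKBP9 to SF-539-shControl, 0.1 added) of pathway genes outside the 38, by list, with grey bars for the 95% counting interval, black lines for the median of each list and dashed lines at 1.2-fold. Genes past 1.2-fold with an interval beyond 0 are red and named, with BNIP3L the highest (0.47) and RUBCN the lowest (-0.42).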

How the data were processed

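Per the submitters' processing notes, the authors used HISAT2 2.0.5, featureCounts 1.5.0-p3, edgeR and the build hg38. They deposited FPKM per gene with gene identifier, position, length and biotype. The file held 0 other columns of values per library. The strand setting of the counting is not given in the sources used here.

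From the deposited FPKM, fragments were recovered as value times gene length divided by the smallest step of the library. Every value came out whole within 8.3e-09, and the library size that the step implies was 0.9994 and 1.0006 of the summed fragments. On a gene of 1000 bases, 1 fragment is 0.0552 FPKM in SF-539-shControl and 0.0582 FPKM in SF-539-shFKBP9, and a count of 0 allows up to 3 fragments. Counts over genes and their background were taken from all protein-coding genes that reached 1 FPKM in either library. The recovery, the intervals and the counts past a fold were also run on simulated data.

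The members and the other lists were chosen with earlier results of these data known, and the list of genes downstream of ATF4 or CHOP is from general knowledge. The genes named are FKBP9, all members, markers, copies and overlapping genes. From the other lists they are genes past 1.2-fold with a counting interval beyond 0 and those with 0 fragments in both libraries. ATL1, TFE3 and MITF of the other lists are named outside this rule. For 1 gene of these lists the result is not reported here. GC content, exon overlap and coding sequence come from GENCODE 44, promoters from RefSeq. GC content was divided into 20 bins for centring and 5 groups for description. The alternatives were 1 or 0.01 in place of 0.1 as the added value, the median ratio as the scaling, TPM, no minimum or a minimum in both libraries, copies summed with their gene and intervals at 99%. Centring by GC content and leaving out members with 30% or more of their exonic bases overlapped were added after the data were seen. The versions were matplotlib 3.10.9, scipy 1.17.1, pandas 2.3.3, numpy 2.4.6 and Python 3.11.15.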

Additional observations from a re-analysis of the deposited data

How the results depend on the processing

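No paired analysis was possible because there was 1 library per condition, and for the same reason no library could be left out. With 1 added to FPKM the log2 ratio of FKBP9 was -3.161, that of CCPG1 0.336 in place of 0.59, and that of GABARAP 0.184, which left 2 members past 1.2-fold upward. With FPKM rescaled to TPM, a shift of 0.018 on the log2 scale, the median of the members was -0.001, ATG9A passed 1.2-fold downward (1 member, beside 0) and the interval lay below 0 for 8 members in place of 5 and above 0 for 5 in place of 7. At 99% the interval lay above 0 for 4 members in place of 7. Without the members with at least 30% exon overlap (GABARAP, CCPG1 and ATG9A), 1 member was past 1.2-fold upward in place of 3, with no background computed for that set. The count past 2-fold was 0 in both directions under every alternative run for it. Scaling by the median ratio turned the sign of ATG13 (0.003) and ATG4A (0.01), and TPM that of GABARAPL2 (-0.01) and ATG2B (-0.001). Depth limits GABARAP, CCPG1, UVRAG and ULK2 most, and replication limits every difference.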
